A study of Mus musculus with 12 samples.

Results

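Spock1, Cnnm1, Dpyd and AW551984 are 4 of the 24078 entries of the islet RPKM table, and they were chosen because their RNA was lower in islets without functional Wfs1. The choice set no numerical threshold, and the levels in Wfs1KO islets against the other genotypes were the values that made it. Those levels are therefore given as a description, with no test. Pancreatic islets came from male F2 hybrids of 129S6/SvEvTac and C57BL/6 aged 5 to 6 months, and 3 genotypes with 4 animals each were sequenced. WT animals carried 2 intact Wfs1 alleles, Wfs1HZ animals carried 1 copy of the Wfs1tm1Koks allele and Wfs1KO animals carried that allele on both chromosomes. In Wfs1tm1Koks a LacZ cassette stands in place of most of exon 8, so that a truncated fusion protein can still be made, and the mutation is present in every cell of the animal rather than in beta cells alone. Islets of all genotypes were freed with collagenase and picked by hand into medium with high glucose. The paper reports an overnight culture ahead of its secretion assay, and does not say whether the sequenced islets had it. Each animal gave 1 library from 10 ng of total RNA.

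Wfs1 encodes wolframin, a membrane protein of the endoplasmic reticulum whose loss causes Wolfram syndrome, with diabetes and optic atrophy. Beta cells of the islet make insulin, and mice have a pair of insulin genes, Ins1 and Ins2. The chosen genes have unlike roles. Spock1 encodes testican-1, a secreted proteoglycan of the SPARC family that carries heparan sulfate and chondroitin sulfate chains and is best known from brain. Cnnm1 encodes a membrane protein of the cyclin M family, whose relatives are linked to magnesium transport. Dpyd encodes dihydropyrimidine dehydrogenase, the enzyme that starts the breakdown of uracil and thymine and also clears the drug 5-fluorouracil. AW551984 is named for an expressed sequence and has no established role. It was set beside Vwa5a and other genes whose proteins hold a von Willebrand A domain.

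The genes lie on different chromosomes, with coordinates from GENCODE M21, whose build GRCm38 is that of mm10. Spock1 spans chr13:57421195-57908332 on the minus strand, and its longest annotated transcript has 12 exons and 4614 nt. Cnnm1 spans chr19:43440436-43497210 on the plus strand, with 11 exons and 5037 nt. Dpyd spans chr3:118562129-119432924 on the plus strand, with 23 exons and 4492 nt. AW551984 spans chr9:39587396-39604403 on the minus strand, with 20 exons and 4293 nt, between the olfactory receptor genes Olfr959 and Olfr148. All are annotated as protein coding. Wfs1 lies on chromosome 5, so none of them is its neighbour.

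Since the genes were picked for a shared direction, the 250 bases before their start sites are shown for comparison. They are RefSeq sequence of build GRCm38.p6, read 5′ to 3′ on the strand of the gene. Capitals mark a GC box (GGGCGG, or CCGCCC on the other strand) or an E-box (CACGTG or CAGATG, the latter CATCTG on the other strand).
Spock1, chr13:57908333-57908582, minus strand: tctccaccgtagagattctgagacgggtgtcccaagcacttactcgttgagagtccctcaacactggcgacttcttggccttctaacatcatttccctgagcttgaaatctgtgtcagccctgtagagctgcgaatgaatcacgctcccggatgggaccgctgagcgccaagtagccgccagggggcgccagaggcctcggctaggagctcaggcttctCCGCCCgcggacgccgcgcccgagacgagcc
Cnnm1, chr19:43440163-43440412, plus strand: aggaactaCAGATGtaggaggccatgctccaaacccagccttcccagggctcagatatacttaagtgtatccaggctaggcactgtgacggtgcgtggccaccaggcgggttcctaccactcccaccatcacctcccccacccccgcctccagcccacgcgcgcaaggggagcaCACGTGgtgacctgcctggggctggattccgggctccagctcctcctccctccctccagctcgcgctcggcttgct
Dpyd, chr3:118561930-118562179, plus strand: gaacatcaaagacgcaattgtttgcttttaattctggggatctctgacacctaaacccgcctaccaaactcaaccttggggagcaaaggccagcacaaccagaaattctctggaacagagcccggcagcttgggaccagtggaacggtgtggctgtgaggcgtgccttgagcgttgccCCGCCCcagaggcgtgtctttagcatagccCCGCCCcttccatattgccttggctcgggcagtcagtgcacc
AW551984, chr9:39604271-39604520, minus strand: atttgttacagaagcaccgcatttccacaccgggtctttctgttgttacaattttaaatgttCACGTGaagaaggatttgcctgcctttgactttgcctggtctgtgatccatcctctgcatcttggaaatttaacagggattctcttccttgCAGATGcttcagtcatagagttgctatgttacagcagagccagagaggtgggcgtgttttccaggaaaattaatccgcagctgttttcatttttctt
The search also covered the CCAAT box, the TATA box (TATAAA) and the cyclic AMP response element core (TGACGT), always on both strands, and ran over windows from 250 bases before to 50 bases after a start. None of these further motifs was in the first window of any of the genes, while 37.4%, 13.6% and 7.51% of all RefSeq windows held them. Spock1 had 1 GC box, 31 bases before its start, and Dpyd had 2, at 72 and 42 bases before. Cnnm1 held CACGTG 76 bases before and 8 bases after its start, and CAGATG 242 bases before. The first of 3 annotated AW551984 windows held CACGTG at 188 and CAGATG at 97 bases before its start. Of the 32851 RefSeq windows of this length 35.7% held a GC box, 7.15% held CACGTG and 17.2% held CAGATG. GC content was 64% for Spock1, 66.3% for Cnnm1, 58.3% for Dpyd and 45.7% for AW551984, against a median of 52.7% over all windows. A match is a description of the letters only, and promoter activity was not measured.

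The values are RPKM, reads scaled by the authors to transcript length and to the reads of the library. The depth behind them was estimated from the steps between low values of short RNA genes at 2190000 to 9556000 reads in the 12 libraries. This estimate of the reads behind the RPKM is well below the reads per sample that the paper reports, and the reason was not tested. By this estimate Wfs1HZ replicate 2 was the shallowest, and it had the lowest Ins2 level of all animals. Wfs1 itself had 24.85 to 33.94 RPKM in WT and 2.45 to 6.61 RPKM in Wfs1KO islets. The Wfs1HZ animals had 4.69 to 16.43 RPKM, below all WT animals, and Wfs1HZ replicate 2 at 4.69 RPKM lay inside the Wfs1KO range. Beta cell markers summed to 32086 to 179874 RPKM in WT, 12565 to 137740 in Wfs1HZ and 22394 to 91427 in Wfs1KO islets, and none of these markers was absent from all animals. Acinar enzyme RNA was also abundant, with sums of 7734 to 289953 RPKM over all animals. In bulk islets, fewer cells of a type and less RNA per cell cannot be told apart.

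In Wfs1KO islets mean Spock1 RNA was 31.7% of its WT level, and no Wfs1KO animal reached the level of any other animal. The WT animals had 22.24, 14.08, 14.39 and 18.34 RPKM. The Wfs1HZ animals had 12.43, 8.81, 22.18 and 16.17 RPKM. The Wfs1KO animals had 4.45, 5.54, 4.52 and 7.36 RPKM. The highest Wfs1KO value, from replicate 4, was thus below the lowest value of the other genotypes, from Wfs1HZ replicate 2. Means were 17.3 ± 3.84 RPKM in WT, 14.9 ± 5.71 in Wfs1HZ and 5.47 ± 1.36 in Wfs1KO islets (SD, n = 4 each). On the log2(RPKM + 0.1) scale Wfs1KO minus WT was -1.65 (standard error 0.23) and Wfs1KO minus Wfs1HZ was -1.38 (standard error 0.33). Spock1 was the most abundant of the chosen genes in WT islets, where 86.7% of the entries had a lower mean. Its values rest on approximately 193 to 897 reads in WT, 89 to 751 in Wfs1HZ and 112 to 196 in Wfs1KO animals.

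Cnnm1 RNA was low in every genotype and lowest in Wfs1KO islets. The WT animals had 4.69, 1.65, 1.69 and 6.06 RPKM. Replicates 1 and 4 were thus far above replicates 2 and 3, which were as low as the Wfs1HZ animals. The Wfs1HZ animals had 1.78, 2.69, 1.66 and 1.92 RPKM. The Wfs1KO animals had 1.44, 1.15, 0.68 and 0.84 RPKM. No Wfs1KO animal overlapped with another genotype, but the highest of them, at 1.44 RPKM, was close to the lowest WT animal, at 1.65 RPKM. Means were 3.52 ± 2.21, 2.01 ± 0.464 and 1.03 ± 0.337 RPKM (SD, n = 4 each) in WT, Wfs1HZ and Wfs1KO islets. The log2 difference was -1.51 (standard error 0.50) for Wfs1KO minus WT and -0.93 (standard error 0.47) for Wfs1KO minus Wfs1HZ. With approximately 13.9 to 69.3 reads in a Wfs1KO animal, Cnnm1 had the thinnest support of the chosen genes.

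Dpyd RNA was lowest in Wfs1KO islets and, unlike the others, had its highest mean in Wfs1HZ islets. The WT animals had 3.86, 3.76, 3.39 and 5.58 RPKM. The Wfs1HZ animals had 5.84, 4.6, 4.21 and 9.48 RPKM. The Wfs1KO animals had 2.18, 1.68, 1.81 and 1.36 RPKM. All Wfs1KO values lay below all WT and Wfs1HZ values, and replicate 4 of both WT and Wfs1HZ was the highest of its genotype. Means were 4.15 ± 0.976 RPKM in WT, 6.03 ± 2.4 in Wfs1HZ and 1.76 ± 0.339 in Wfs1KO islets (SD, n = 4 each). Dpyd differed by -1.19 (standard error 0.28) for Wfs1KO minus WT and by -1.67 (standard error 0.38) for Wfs1KO minus Wfs1HZ on the log2 scale. The Wfs1KO mean was 42.4% of the WT mean and 29.1% of the Wfs1HZ mean. Approximately 20.1 to 93.6 reads stood behind a Wfs1KO value.

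AW551984 RNA was lower in every Wfs1KO animal than in every WT animal, but not than in every Wfs1HZ animal. The WT animals had 6.32, 8.79, 8.81 and 4.96 RPKM. The Wfs1HZ animals had 8.97, 7.9, 4.53 and 2.11 RPKM. The Wfs1KO animals had 1.93, 2.53, 2.32 and 3.76 RPKM. Wfs1HZ replicate 4 fell inside the Wfs1KO range, and the other Wfs1HZ animals lay above it. Means were 7.22 ± 1.91 RPKM in WT, 5.88 ± 3.14 in Wfs1HZ and 2.64 ± 0.79 in Wfs1KO islets (SD, n = 4 each). AW551984 differed by -1.42 (standard error 0.29) for Wfs1KO minus WT and by -0.97 (standard error 0.48) for Wfs1KO minus Wfs1HZ on the log2 scale.

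**Figure D1:**
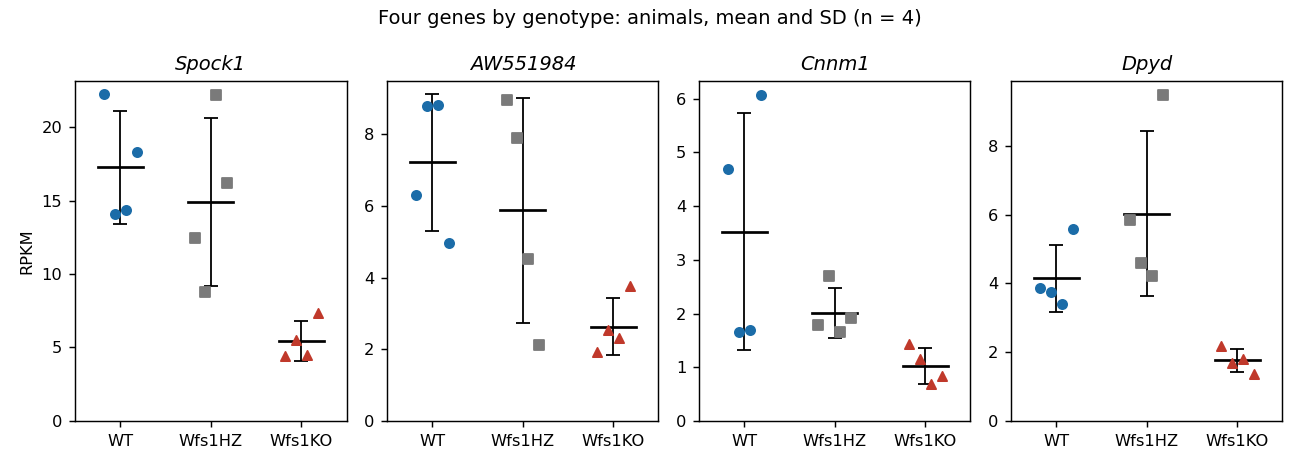
RPKM of Spock1, AW551984, Cnnm1 and Dpyd on the vertical axes in WT, Wfs1HZ and Wfs1KO islets; each point is 1 animal, the bar is the mean and the whisker is the SD (n = 4). Wfs1KO animals lie below all others for Spock1, Cnnm1 and Dpyd, while the lowest Wfs1HZ animal for AW551984 (2.11 RPKM) lies among them.

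Without Wfs1HZ replicate 2, the shallow library whose Wfs1 level lay among those of Wfs1KO, the difference Wfs1KO minus Wfs1HZ was -1.60 for Spock1, -0.79 for Cnnm1, -1.77 for Dpyd and -0.77 for AW551984. Without that animal Wfs1HZ minus WT was -0.04, -0.72, 0.59 and -0.65 in the same order.

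Separation between the genotypes was uncommon over the whole table. Of the 21701 transcripts tested 0.991% had every Wfs1KO animal below every WT animal, 0.502% had every Wfs1KO animal below every Wfs1HZ animal, and 0.138% met both. Spock1, Cnnm1 and Dpyd are among the 30 transcripts that met both, but they were chosen for this direction and nothing is read from it.

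Among these genes the heterozygous level did not follow a common pattern, and no difference between Wfs1HZ and WT islets was shown for any of them. The Wfs1HZ and WT animals also stood in the contrasts that chose the genes. Spock1 differed by -0.27 (95% interval -0.93 to 0.40) for Wfs1HZ minus WT on the log2 scale, with overlapping animals (exact two-sided permutation test, p = 0.429). Cnnm1 differed by -0.58 (95% interval -1.69 to 0.54, exact permutation p = 0.4) and AW551984 by -0.45 (95% interval -1.45 to 0.55, exact permutation p = 0.457). Dpyd differed in the other direction, by 0.48 (95% interval -0.25 to 1.22, exact permutation p = 0.143). The adjusted p from limma was 1 for each, and 0 of the 21701 transcripts passed an adjusted p of 0.2 between Wfs1HZ and WT (0.0%), with 275 lower (1.27%) and 236 higher (1.09%) at an unadjusted p under 0.05.

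Insulin RNA varied more between animals than between genotypes. Ins2 had 67080, 15292, 23011 and 76687 RPKM in WT animals. The Wfs1HZ animals had 21237, 6423, 68564 and 59053 RPKM. The Wfs1KO animals had 33525, 24433, 14220 and 9199 RPKM. The genotypes overlapped, and every Wfs1KO value lay within the range of the other animals. Ins2 differed by -1.02 on the log2 scale for Wfs1KO minus WT, within the spread of the animals (exact two-sided permutation test, p = 0.2; adjusted p = 0.973 from limma). The standard error of that difference was 2.04 with a trend in the variance and 0.56 with a robust variance. Ins1 moved by -0.52 on the same scale (exact two-sided permutation test, p = 0.543).

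Set against Ins2 RNA, the chosen genes no longer separated the genotypes. Spock1 had 0.529 ± 0.309 RPKM per 1000 RPKM of Ins2 in WT, 0.639 ± 0.507 in Wfs1HZ and 0.369 ± 0.297 in Wfs1KO islets (SD, n = 4 each), with Wfs1KO animals from 0.133 to 0.800. Cnnm1 had 0.0826 ± 0.0173 in WT, 0.140 ± 0.188 in Wfs1HZ and 0.0573 ± 0.0228 in Wfs1KO islets. The WT animals lay closer together for Cnnm1 per Ins2, at 0.0699 to 0.108, than in RPKM. Dpyd had 0.131 ± 0.0861 in WT, 0.303 ± 0.289 in Wfs1HZ and 0.102 ± 0.0417 in Wfs1KO islets. AW551984 had 0.279 ± 0.244 in WT, 0.439 ± 0.556 in Wfs1HZ and 0.183 ± 0.156 in Wfs1KO islets. For each gene the highest Wfs1HZ value came from replicate 2 and the highest Wfs1KO value from replicate 4, the animals with the lowest Ins2 of their genotype.

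The mean log2 ratio to Ins2 was still lower in Wfs1KO than in WT islets for each gene. Each ratio difference is the RPKM difference of the gene less the same Ins2 difference of -1.02. All are thus smaller by construction, and that Ins2 difference lay within the spread of the animals. It differed by -0.63 for Spock1, -0.49 for Cnnm1, -0.40 for AW551984 and -0.17 for Dpyd. The direction rested on single animals for AW551984, whose difference was 0.12 without WT replicate 2 and 0.02 without Wfs1KO replicate 1. Likewise for Dpyd it was 0.22 without WT replicate 2 and 0.03 without Wfs1KO replicate 1. For Spock1 it stayed below 0 with any animal left out, between -1.10 without Wfs1KO replicate 4 and -0.24 without Wfs1KO replicate 1.

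**Figure D2:**
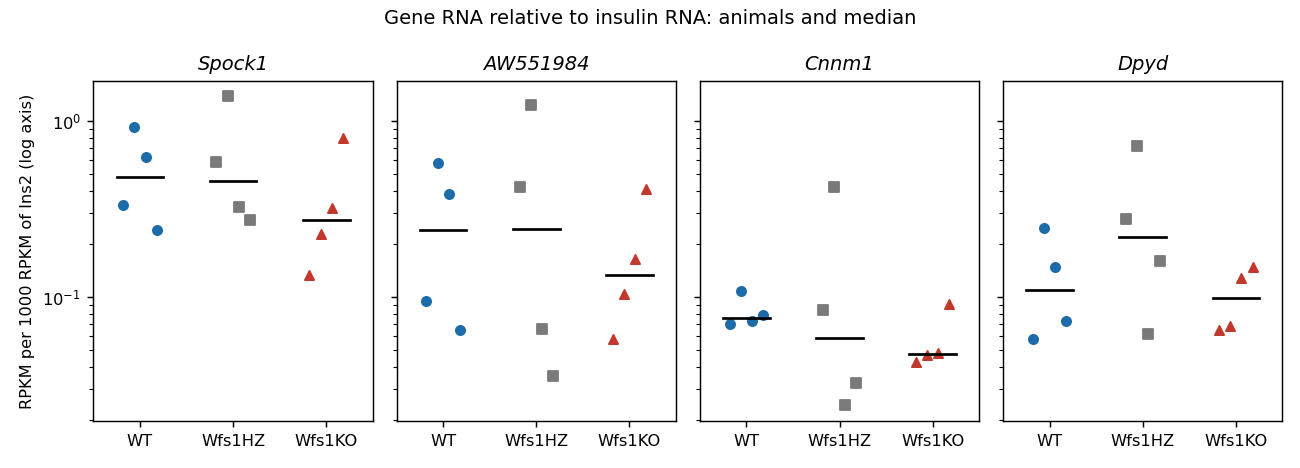
RPKM of each gene per 1000 RPKM of Ins2, on a log axis, in WT, Wfs1HZ and Wfs1KO islets; each point is 1 animal and the bar is the median (n = 4). The genotypes overlap for every gene, and the highest point of each panel is Wfs1HZ replicate 2 (1.37 for Spock1, 0.419 for Cnnm1).

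A further look at how the genes followed islet cell RNA was chosen after the data had been seen. It used log2 values of the 8 WT and Wfs1HZ animals, and covered 12 relations of the 4 genes with Ins2, with glucagon RNA (Gcg, alpha cells) and with chymotrypsinogen RNA (Ctrb1, acinar cells). Spock1 was higher in animals with more Ins2 RNA (Pearson r = 0.926, exact permutation p = 0.00288, adjusted over the 12 relations 0.0345). Spearman's rho was 0.881 (exact permutation p = 0.00724, adjusted 0.0869), and r was 0.861 without the 2 animals farthest from the median of Ins2. None of these 8 animals lay between 23011 and 59053 RPKM of Ins2. The Wfs1KO animals did not follow that order, since Spock1 was highest in replicate 4, which had the least Ins2 RNA of them and 217165 RPKM of Gcg. AW551984 had r = -0.639 with Ins2 (rho = -0.619) and r = 0.675 with Gcg (rho = 0.690), and neither passed adjustment (permutation test, adjusted p = 0.17 for each r). Within the genotypes of 4 animals its r with Ins2 was -0.936 in WT, -0.724 in Wfs1HZ and -0.856 in Wfs1KO. Cnnm1 and Dpyd had r = 0.379 and r = 0.273 with Ins2, with permutation p-values of 0.349 and 0.526 (adjusted 0.419 and 0.574). For Cnnm1 that value mixed opposite directions, r = 0.977 in WT and -0.858 in Wfs1HZ animals, with 0.840 in Wfs1KO. Dpyd had 0.685, 0.350 and 0.851 in the same order. These r over 4 animals each were not tested.

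The Wfs1KO animals lay under all others for Spock1, but not each had a like level of Ins2 RNA to compare. Wfs1KO replicate 1, at 33525 RPKM of Ins2, had no WT or Wfs1HZ animal near it. With log2 Ins2 as a covariate, a fit added after the data had been seen, Spock1 differed by -1.58 (standard error 0.28) for Wfs1KO minus WT. That fit takes a common slope, while Spock1 had r = 0.891 with Ins2 in WT and -0.690 in Wfs1KO animals. The same fit gave -0.97 (standard error 0.29) for Dpyd and -1.78 (standard error 0.25) for AW551984. Cnnm1 moved the most, from -1.51 without the covariate to -0.81 (standard error 0.36) with it. For Wfs1KO minus Wfs1HZ, however, Cnnm1 was at -0.93 without the covariate and at -0.95 (standard error 0.45) with it. These too are descriptions of the contrasts that chose the genes.

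**Figure D3:**
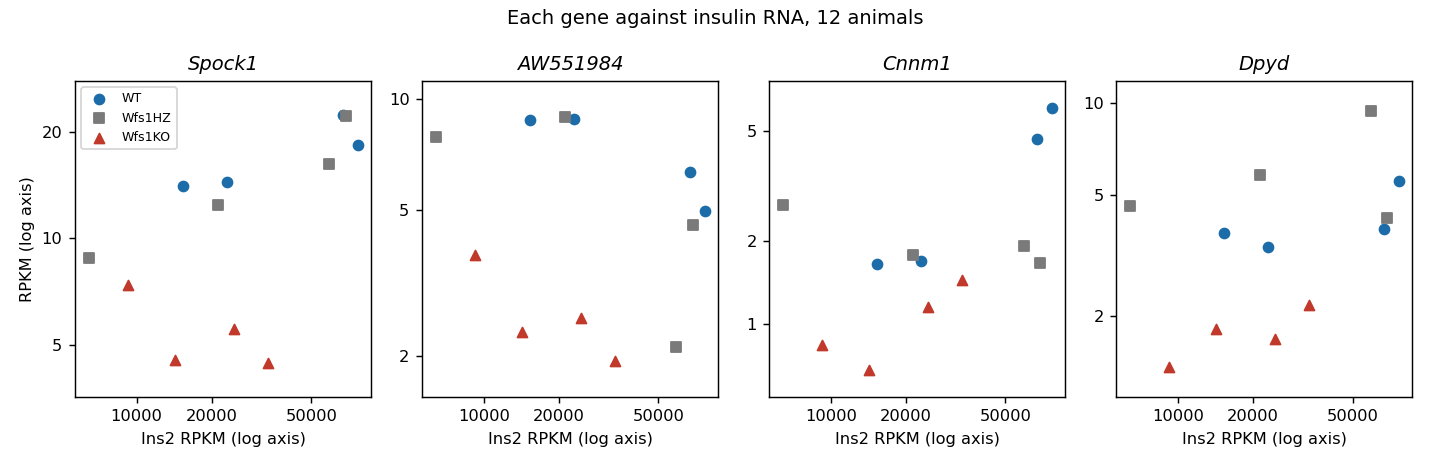
RPKM of each gene against the RPKM of Ins2, both on log axes, with 1 point for each of 12 animals in WT, Wfs1HZ and Wfs1KO islets. Spock1 is higher in WT and Wfs1HZ animals with more Ins2 (r = 0.926 over 8 animals), and the Wfs1KO points lie below that cloud; AW551984 shows the opposite slope and Dpyd little slope.

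Most markers of islet and other cell types overlapped between the genotypes. Of 10 beta cell markers 0 had all Wfs1KO animals below or above all WT animals. Sox9 of 5 duct markers, Cdh5 of 5 endothelial markers and Dcn of 7 stromal markers were higher in every Wfs1KO than in every WT animal, as were 1.75% of all transcripts. Endothelial markers summed to 21.7 to 54.9 RPKM in WT, 20.0 to 99.3 in Wfs1HZ and 54.7 to 67.1 in Wfs1KO islets. Stromal markers summed to 19.3 to 60.5, 12.5 to 361 and 58.8 to 134 RPKM in the same order. The part of these cell types in the lower values of the chosen genes was not tested.

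Within genotypes the correlations between the chosen genes differed in sign and size, and they were not tested. Over 12 animals, with the mean of each genotype removed, AW551984 and Dpyd had the most extreme correlation, r = -0.76. Spock1 had r = -0.35 with AW551984, 0.10 with Cnnm1 and -0.05 with Dpyd. Cnnm1 had r = 0.38 with Dpyd and -0.32 with AW551984. These are descriptions over shared libraries.

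For the other testicans a difference between Wfs1KO and WT islets was not shown. Spock2, which encodes testican-2, was more abundant than Spock1, with 49.9 ± 14.8 RPKM in WT, 66.7 ± 33.2 in Wfs1HZ and 49.98 ± 14.3 in Wfs1KO islets (SD, n = 4 each). Its log2 difference for Wfs1KO minus WT was 0.00 (95% interval -0.57 to 0.58). Spock3 was scarce, at 1.34 ± 0.663 RPKM in WT and 1.20 ± 0.635 in Wfs1KO islets, with a difference of -0.22 (95% interval -1.42 to 0.99). Of 9 genes of the SPARC and testican family, without Spock1, 0 passed an adjusted p of 0.2 by limma, as 0.0461% of all transcripts did, and 1 (11.1%) was lower at an unadjusted p under 0.05, against 1.74% of all transcripts. That gene was Fstl5, a follistatin-like relative, at -0.92 (adjusted p = 0.874 from limma). Smoc1 and Smoc2, which encode calcium-binding matrix proteins, were at 0.88 and 0.98, and the list's median was 0.47 against 0.07 over all transcripts.

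Of 25 genes for enzymes that build the sugar chains of proteoglycans 2, Ndst4 and Extl1, had every Wfs1KO animal below every WT animal, 8% against 0.991% of all transcripts. Ndst4, a heparan sulfate N-deacetylase and N-sulfotransferase, had 9.94, 9.59, 4.89 and 6.64 RPKM in WT and 3.12, 3.66, 2.58 and 4.5 RPKM in Wfs1KO animals. The groups lay close, with 4.5 against 4.89 RPKM at their nearest, and the log2 difference of -1.11 (standard error 0.29) did not pass over all transcripts (adjusted p = 0.835 from limma). Extl1, an exostosin-like glycosyltransferase, had 0.1 to 0.15 RPKM in Wfs1KO and 0.25 to 0.5 RPKM in WT animals, a level of few reads. Ext1, a subunit of the heparan sulfate polymerase, was at 0.53 in the other direction, and the list's median was 0.08 against 0.07 over all transcripts.

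Among 20 other core proteins, Gpc3, a glypican at the cell surface, was higher in every Wfs1KO animal than in every WT animal (5% of the list, against 1.75% of all transcripts). It had 4.57, 3.92, 5.06 and 8.92 RPKM in Wfs1KO and 1.95, 2.25, 1.8 and 3.29 RPKM in WT animals, a log2 difference of 1.20 (adjusted p = 0.835 from limma). The Wfs1HZ animals, at 2.74 to 16.57 RPKM, were also above most WT animals. Tgfbr3, betaglycan, was at 0.82 and Sdc2, syndecan-2, at -0.69, with overlapping animals. Of 10 proteases and inhibitors linked to testicans Mmp17, a membrane-anchored metalloproteinase, was higher in every Wfs1KO animal (10% of the list), at 0.838 ± 0.317 against 0.325 ± 0.14 RPKM (SD, n = 4 each, adjusted p = 0.844 from limma). Mmp15 and Timp2 were at 0.67 and 0.49.

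For the other cyclin M genes a difference was not shown either. Cnnm2 had 5.34 ± 1.53 RPKM in WT islets and 6.79 ± 2.02 in Wfs1KO, Cnnm3 had 5.54 ± 1.36 and 5.91 ± 2.77, and Cnnm4 had 4.31 ± 0.667 and 3.71 ± 0.86 (SD, n = 4 each). The 95% intervals of Wfs1KO minus WT were -0.39 to 1.06 for Cnnm2, -0.76 to 0.79 for Cnnm3 and -0.77 to 0.33 for Cnnm4. Each of these genes was more abundant in WT islets than Cnnm1. Of 23 genes of this family and of magnesium transport 0 passed an adjusted p of 0.2 by limma (0.0461% of all transcripts), and 1 (4.35%) was higher at an unadjusted p under 0.05, against 3.91% of all transcripts. That was Magt1, a magnesium transporter of the endoplasmic reticulum and plasma membrane that is also part of the oligosaccharyltransferase. Magt1 had 77.02, 81.55, 56.72 and 46.4 RPKM in Wfs1KO animals, above all Wfs1HZ animals (39.34, 27.69, 32.79 and 16.92 RPKM). Nipal2, of a family of magnesium transporters, was separated in the same way, so that 2 of the 23 genes (8.7%) were, against 0.926% of all transcripts. Nipal2 and its relative Nipal1 were lower in every Wfs1HZ than in every WT animal, 2 of the 23 genes (8.7%). The share of all transcripts separated between Wfs1HZ and WT was not computed, so nothing is read from it. Nipal2 did not separate Wfs1KO from WT. For Wfs1HZ minus WT Magt1 was at -0.54 (standard error 0.28) on the log2 scale. The log2 difference of Magt1 was 1.19 for Wfs1KO minus Wfs1HZ, with a standard error of 0.30 and an adjusted p of 1 by limma. For Wfs1KO minus WT it was 0.65, with a standard error of 0.24 and an adjusted p of 0.835 by limma, and there WT replicate 1 with 56.2 RPKM overlapped.

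For the enzymes of pyrimidine breakdown that act after Dpyd a difference was not shown. Dpys, the dihydropyrimidinase that acts next, was scarce, with 0.24 ± 0.11 RPKM in WT and 0.407 ± 0.163 in Wfs1KO islets (difference 0.59, 95% interval -0.41 to 1.59). Upb1, which makes beta-alanine in the last step, had 13.6 ± 5.61 and 13.2 ± 4.04 RPKM (SD, n = 4 each), a difference of -0.01 (95% interval -0.78 to 0.76). Of 10 genes of this pathway 0 had an unadjusted p under 0.05 between Wfs1KO and WT by limma. Over all transcripts 1.74% were lower and 3.91% higher, so so short a list says little. The closest were Upp1 at 0.39, Hibadh at -0.25 and Agxt2 at 0.84. Between Wfs1KO and Wfs1HZ 1 of the 10 (10%) was higher at that threshold, against 1.7% of all transcripts. Of 16 genes of pyrimidine synthesis and salvage only Ctps2, a CTP synthase, had every Wfs1KO animal below every WT animal (6.25%, against 0.991% of all transcripts), at 9.41 ± 1.35 against 12.2 ± 0.946 RPKM (SD, n = 4 each). Its difference was -0.37 (adjusted p = 0.879 from limma).

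Vwa5a, the gene set beside AW551984, had 20.8 ± 1.89 RPKM in WT, 17.7 ± 3.65 in Wfs1HZ and 22.0 ± 3.65 in Wfs1KO islets (SD, n = 4 each). The log2 difference for Wfs1KO minus WT was 0.07 (95% interval -0.30 to 0.44). Of the 9 von Willebrand A domain genes measured 0 passed an adjusted p of 0.2 by limma (0.0461% of all transcripts), with 1 lower and 1 higher at an unadjusted p under 0.05 (11.1% each, against 1.74% and 3.91% of all transcripts). The lower one was 1300010F03Rik, the table's name for Vwa8, at -0.53, and the higher one was Vwa3a at 1.49, from 0.745 RPKM in Wfs1KO and 0.258 RPKM in WT islets.

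**Figure D4:**
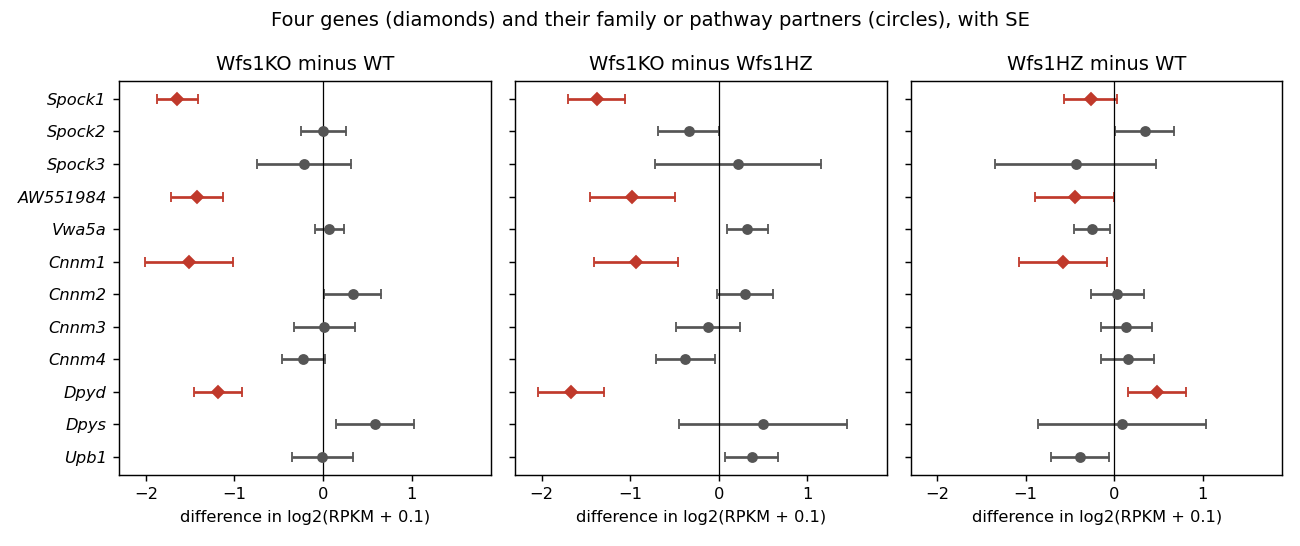
Differences in log2(RPKM + 0.1) on the horizontal axes for Wfs1KO minus WT, Wfs1KO minus Wfs1HZ and Wfs1HZ minus WT; diamonds are the chosen genes, circles are family or pathway partners, and whiskers are the standard error. In the first panel the chosen genes lie between -1.65 and -1.19 and their partners between -0.22 and 0.59.

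Over all 8 lists 122 of 123 genes were found and tested. Between Wfs1KO and WT islets 0 passed an adjusted p of 0.2 by limma, against 0.0461% of all transcripts. At an unadjusted p under 0.05, 4 were lower (3.28%, against 1.74% of all transcripts) and 7 were higher (5.74%, against 3.91%). Between Wfs1KO and Wfs1HZ 0 passed, with 0 lower (0.756% of all transcripts) and 2 higher (1.64%, against 1.7%) at an unadjusted p under 0.05. Between Wfs1HZ and WT 0 passed as well. There 2 were lower (1.64%, against 1.27% of all transcripts) and 1 was higher (0.82%, against 1.09%) at an unadjusted p under 0.05. The medians of the lists together were 0.10, 0.15 and -0.02 on the log2 scale in these comparisons, and those of all transcripts were 0.07, 0.04 and 0.04.

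Genes with a pattern like that of a chosen gene were taken as those with the highest Pearson r over 12 animals on the log2 scale, among the 13356 transcripts whose mean reached 1 RPKM. These animals include the Wfs1KO animals whose low values chose the genes, so other genes low in Wfs1KO rank high partly for that. Spock1 was most like Maob (r = 0.912), which encodes monoamine oxidase B and stayed alike within genotypes (r = 0.951 with genotype means removed). Next came Gipr, the receptor of the incretin GIP (r = 0.896), Trpm5, a cation channel of taste cells and beta cells (r = 0.895), Pram1 and Fhdc1. Once genotype means were removed Trpm5 had r = 0.572, Fhdc1 0.580, Gipr 0.818 and Pram1 0.845. The study lists Maob and Trpm5 among its genes lower in Wfs1KO islets, and the chosen genes stand in the same lists. Its edgeR test at a false discovery rate under 0.05 lists Spock1 against both WT and Wfs1HZ. AW551984 and Cnnm1 are listed there against WT, and Dpyd against Wfs1HZ. The genes nearest to AW551984 were Lrrc9 (r = 0.942), Pik3c3, Smarcal1, Cacna2d3 and Pdha1 (r = 0.905), each with r of at least 0.845 within genotypes. Those nearest to Cnnm1 were Wdr72 (r = 0.889), Diras2, Spc25, Lipa and Ctif, with r of 0.656 (Lipa) to 0.889 (Diras2) within genotypes. Those nearest to Dpyd were Aloxe3 (r = 0.866), Aven, Kcnj12, Myh14 and St6galnac2. Within genotypes these had lower r, from 0.112 for Kcnj12 to 0.584 for Aven. No transcript stood in more than 1 of these lists.

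For the nearest genes on either side of the chosen ones no difference was shown between Wfs1KO and WT islets. Got1, an aspartate aminotransferase gene on the minus strand whose nearest edge lies 2.54 kb beyond Cnnm1, had a mean of 42.6 RPKM in WT islets against 52.0 RPKM in Wfs1KO, a log2 difference of 0.24 (standard error 0.22). Ptbp2, a splicing regulator 286 kb from Dpyd, was at 0.42 (standard error 0.36), and Mir137 on its other side was listed at 0 in all animals. Klhl3, 91.9 kb from Spock1, was at 0.48 (standard error 0.54). Trpc7, Hpse2 and the olfactory receptor genes beside AW551984 had means under 0.5 RPKM in both genotypes, a level near that of a few reads.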

How the data were processed

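Islet RNA of 12 mice, 4 of each genotype, was sequenced on a SOLiD 5500xl after cDNA synthesis with Ovation RNA-Seq System V2. The authors mapped reads to mm10 with LifeScope and deposited RPKM, with 1 column for each animal. The counter and the annotation are not given in the sources used here. The study's edgeR test needs counts, so it was not repeated. Genotypes were taken from the sample labels.

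RPKM were analysed as log2(RPKM + 0.1), which understates changes of low genes. Each pair of genotypes was fitted with limma 3.58.1 (R 4.3.3), letting the variance depend on the level, and p-values were adjusted by Benjamini-Hochberg over the 21701 transcripts whose mean reached 0.1 RPKM. The fit was tested on simulated data. Single values were compared by exact two-sided permutation tests, whose smallest p for 4 against 4 animals is 0.0286. Other steps ran in Python 3.11.15 (scipy 1.17.1, pandas 2.3.3, numpy 2.4.6), and figures were drawn with matplotlib 3.10.9.

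The genes and lists were chosen with earlier results of these data known. Named genes are the chosen ones, Ins1, Ins2, Wfs1, their paralogs and next enzymes, up to 3 genes with the lowest p in each list, the 5 most alike in pattern and the nearest neighbours. Approximate reads are RPKM times exon length and estimated depth, with 96.6% to 100% of low values of short RNA genes within 0.1 of a whole read. They cover counting error only. The table holds 58 entries with a repeated name and 969 marked as duplicate copies, all kept. The result of a single cell type marker is not reported here.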

Additional observations from a re-analysis of the deposited data

Results flagged for a closer look

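In 57 sets of 4 animals, 5 held a value whose gap to the nearest animal took up more of the whole range than Dixon's 95% limit for 4 samples allows, and chance gives such a gap in about 1 of 20 sets. Spock2 was at 71.82 RPKM in WT replicate 4, above the other WT animals. Vwa5a was at 18.04 RPKM in WT replicate 4, below the other WT animals. Dpys was at 2.36 RPKM in Wfs1HZ replicate 2, while the gene was near 0 in the other animals of that genotype. Cnnm1 per 1000 RPKM of Ins2 was 0.419 in Wfs1HZ replicate 2 and 0.0913 in Wfs1KO replicate 4. These are the animals with the least Ins2 RNA of their genotype, at 6423 and 9199 RPKM.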

How the results depend on the processing

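The RPKM differences of the chosen genes between Wfs1KO and the other genotypes stayed below 0 under every alternative that was run. With each animal left out in turn Wfs1KO minus WT lay between -1.80 and -1.52 for Spock1, -1.60 and -1.29 for AW551984, -1.78 and -1.18 for Cnnm1 and -1.29 and -1.04 for Dpyd. With a pseudocount of 1 Dpyd was at -0.89. With log2 Ins2, Gcg or Ctrb1 as a covariate, alternatives chosen after seeing the data, Cnnm1 lay between -1.63 and -0.81. Spock1 for Wfs1HZ minus WT turned to 0.051 with sample weights.

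Relative to Ins2 the differences were less stable. With an animal left out they lay between -1.10 and -0.24 for Spock1, -0.92 and 0.12 for AW551984, -0.74 and -0.34 for Cnnm1 and -0.48 and 0.22 for Dpyd. A pseudocount of 1 gave -0.016 for Cnnm1 and 0.13 for Dpyd, since it weighs most on low values.

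The number of transcripts with an adjusted p under 0.2 between Wfs1KO and WT, 10 as reported, was 5 with all 12 animals in one fit, 5 with median-of-ratios scaling, 6 with quantile normalization, 27 with a pseudocount of 0.01, 1 with a pseudocount of 1, 27 with sample weights, 0 with the replicate block, 31 with Ctrb1 and 4 with Ins2 as a covariate. With an animal left out it lay between 1, without WT replicate 2, and 59, without Wfs1KO replicate 4. It was 2 without WT replicate 4, and 3 or 4 without any one of Wfs1KO replicates 1 to 3. Between Wfs1KO and Wfs1HZ, where it was 0, it became 2 with all 12 animals in one fit, 1 with median-of-ratios scaling, 1 with quantile normalization, 3 with a minimum mean of 1 RPKM, 1 with a pseudocount of 0.01, 4 with a robust variance, 42 with sample weights, 1 without a trend in the variance, 3 with Ctrb1 or Ins2 and 1 with Gcg as a covariate, and 0 to 1 with an animal left out (1 without Wfs1HZ replicate 2 or 4). Between Wfs1HZ and WT it was 2 with sample weights and 2 without a trend. Among the family and pathway genes 1 passed between Wfs1KO and Wfs1HZ with sample weights, and none passed under any other alternative. The causes were not tested.

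With all animals kept, 207 values under other settings of the fit kept their direction and side of the threshold or moved within the spread between animals. The same held for 172 values with an animal left out and for 51 under settings chosen after seeing the data. Under other settings of the fit 20 values moved further and 2 changed direction. With an animal left out 8 moved further and 4 changed direction, and 5 moved further under the settings chosen later. Replicate numbers come from the labels and mark different animals. Same-numbered animals of Wfs1KO and WT had correlations of their deviations from -0.13 to 0.06, those of Wfs1KO and Wfs1HZ from -0.17 to 0.09 and those of Wfs1HZ and WT from -0.05 to 0.23, so the numbers were not taken to pair animals. With equal numbers of animals the replicate block leaves the differences as they are and alters their errors alone. The median of all transcripts moved by less than 0.1 on the log2 scale under either scaling. Depth limits the low genes most. In the shallowest library 3 reads on 2 kb are worth 0.685 RPKM, and in the deepest 0.157 RPKM.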
